A study of Mus musculus with 11 samples.

Results

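Copy number along mouse chromosome 13 was read in 11 mammary tumours, with every genomic probe that the array places on that chromosome. These are 7590 of the 170305 probes of the array, set against 153870 probes on the other 18 autosomes, and they run from base 3004789 to base 120283183 of build mm9. The probes were taken by their position on the array. Each tumour came from a different mouse of mixed FVBN/Bl6 strain labelled Pik3ca H1047R, the activating point mutant of the catalytic subunit of phosphoinositide 3-kinase. Tumour DNA was labelled with Cy5 and hybridised together with Cy3-labelled liver DNA of the same genotype label, so that every value is a log2 ratio of tumour over liver. The tumours form 1 group (n = 11, 1 array each, on 3 slides), and the liver carries the same Pik3ca label, so the mutant itself is not what is compared. The promoter or Cre line behind the mutant and the ages of the animals are not given in the sources used here. DNA ratios hold no marker of cell type, so the tissue labels could not be checked, and fewer altered cells and a smaller change per cell cannot be told apart.

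A log2 ratio of 0 here means the middle value of the array, since the median of each array was subtracted. That value need not be the most common copy state. Centring on the mode, the most common level, shifted the ratios most in tumour 7 (by -0.16) and tumour 8 (by 0.13). In a pure diploid tumour, loss of 1 copy in every cell would lower the ratio and gain of 1 copy would raise it, and admixture of normal cells pulls both toward 0. Mouse chromosome 13 has its centromere at the low-coordinate end. It carries Pik3r1, which encodes the p85-alpha subunit that binds and restrains the p110-alpha product of Pik3ca, and Map3k1, a kinase upstream of JNK. Both genes are known as targets of inactivating mutation in human breast cancer.

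Probes at ends of the called changes are printed first, because they mark where the segmentation placed a switch in copy number. Both sides of the end are given for tumours 1 and 7. For tumour 3 only probes inside the loss are given, and for the gap of tumour 2 only probes outside it. Such ends can move with the processing: with normexp background correction the loss of tumour 1 began at base 27413799. Each is given 5′ to 3′ as the deposited files list it, in lower case throughout, with mm9 coordinates. The strand of the probes is not stated in the sources used here.
Last probe before the loss of tumour 1, AK015765, chr13:27393041-27393100: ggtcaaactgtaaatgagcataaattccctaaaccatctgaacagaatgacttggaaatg
First probe of the loss of tumour 1, Prl6a1, chr13:27406701-27406759: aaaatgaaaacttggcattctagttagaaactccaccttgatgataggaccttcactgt
Last probe of the loss of tumour 7, no gene name, chr13:100488934-100488993: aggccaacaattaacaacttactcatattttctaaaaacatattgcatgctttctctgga
First probe after the loss of tumour 7, no gene name, chr13:100512307-100512366: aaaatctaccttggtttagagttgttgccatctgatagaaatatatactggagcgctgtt
Last probe before the gap in the gain of tumour 2, Pde4d, chr13:109445620-109445679: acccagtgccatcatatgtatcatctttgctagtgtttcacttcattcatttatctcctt
First probe after the gap in the gain of tumour 2, Pde4d, chr13:109825303-109825362: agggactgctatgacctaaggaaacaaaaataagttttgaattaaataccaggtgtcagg
First probe of the loss of tumour 3, Ercc8, chr13:108974357-108974416: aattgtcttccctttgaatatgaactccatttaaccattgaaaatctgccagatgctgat
Last probe of the loss of tumour 3, Pde4d, chr13:109704704-109704763: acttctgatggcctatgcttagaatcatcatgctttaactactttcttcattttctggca
Probes of chromosome 13 had a mean GC content of 36.7%, against 36.8% for all autosomes, and a median spacing of 11073 bases, against 10843 bases.

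The arrays differed in quality, which limits where a change could be seen. The SD of the noise between neighbouring probes ran from 0.13 to 0.55 with a median of 0.18, and 6889 to 7564 chromosome 13 probes were measured per array. Tumours 9 and 11 had the highest noise. Tumour 11 ran against several other arrays of the same dye layout, with correlations over all probes of -0.66 with tumour 9, -0.62 with tumour 5, -0.61 with tumour 4 and -0.32 with tumour 10. It stood at -0.22 with tumour 7, -0.098 with tumour 3, -0.063 with tumour 2 and -0.039 with tumour 8. The correlation was positive with tumour 1 (0.077) and tumour 6 (0.25). The direction of the ratios of tumour 11 is therefore not settled, and several results below are also given with it turned.

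Chromosome 13 was lost over most of its length in 2 of the 11 tumours, lost over a short stretch in tumour 3, and gained at its distal end in tumour 2. The other 7 tumours, numbers 4, 5, 6, 8, 9, 10 and 11, had no call. Here a segment counts as a call when it spans 10 probes or more and its mean lies 0.2 or more (log2) away from 0. Loss calls held 15.0% of the chromosome 13 probe values of all arrays, beside 6.62% of all autosomal probe values, and gain calls held 2.33%, beside 6.58%. Calls describe single arrays, so these shares come with no test.

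**Figure D1:**
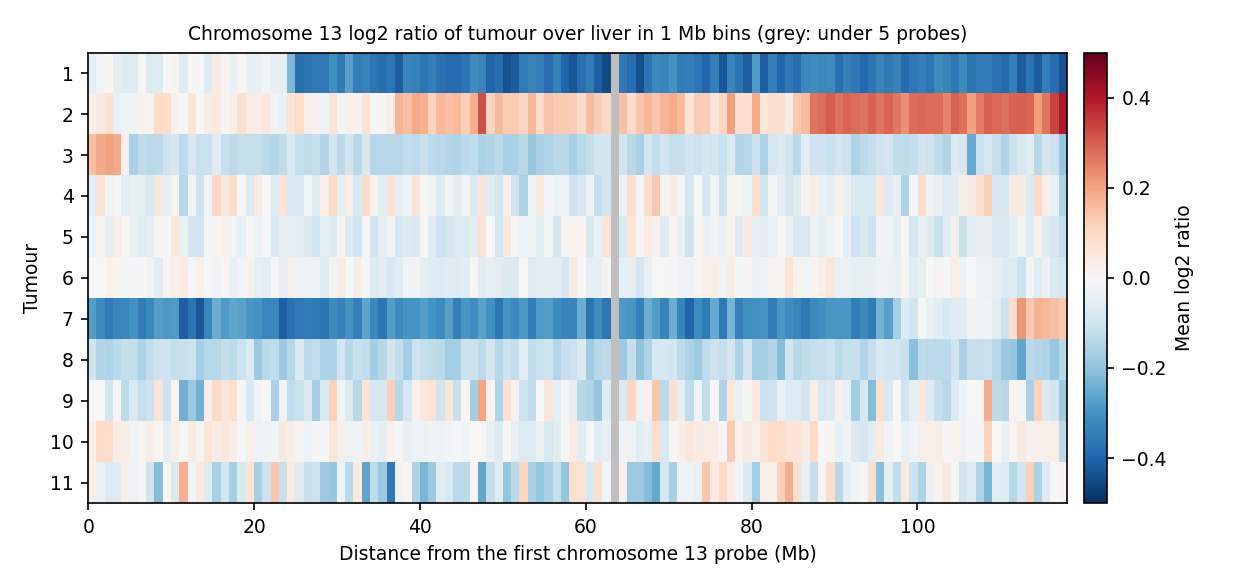
Mean log2 ratio of tumour over liver in 1 Mb bins (colour) along chromosome 13 (x axis, Mb from its first probe) for the 11 tumours (rows). Blue runs through 93 bins at or below -0.2 in tumour 1 and 96 such bins in tumour 7, while red marks 33 bins at or above 0.2 in tumour 2, nearly all at its distal end.

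Tumour 7 lost the chromosome from its first probe to base 100488993, over 97.5 Mb and 5996 measured probes, at a mean of -0.31 (SD 0.29 over probes). This was 83.3% of the measured probes, above the 80% set for a whole loss, and the only whole loss of chromosome 13. Whole losses made up 4.78% of all 209 autosomes of the 11 arrays. With 50% of the probes as the limit, tumours 1 and 7 both counted, where 6.22% of all autosomes did. The loss ended between AK136093 and Mccc2, a subunit of methylcrotonyl-CoA carboxylase. Beyond it the ratio was -0.050 over 14.0 Mb and 884 probes. From base 114572695, between AK156827 and Arl15, it stood at 0.18 over the last 5.71 Mb and 322 probes. That distal end fell short of the threshold for a gain. With the array centred on the mode of its ratios in place of its median, the 3 segments stood at -0.47, -0.21 and 0.020. The middle segment then passed as a loss and the distal end lay near 0. The chromosome of tumour 7 was thus in 3 steps, each higher than the one before it toward the distal end.

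Tumour 1 had the mirror arrangement, with the proximal end kept and everything distal to it lost. Its loss ran from base 27406701 to the last probe, over 92.9 Mb and 5896 probes, at -0.36 (SD 0.19 over probes). It held 78.2% of the measured probes, just under the 80% for a whole loss, and so counts as partial. The 24.4 Mb before it stood at -0.026 over 1645 probes. The change fell between AK015765 and Prl6a1, inside the cluster of prolactin-family genes, which in mice are expressed mostly in the placenta. The 20 probes after the edge averaged -0.38 (SD 0.15), against -0.030 (SD 0.18) for the 20 probes before it.

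Both long losses were as deep as other losses of their own array. The mean of -0.36 in tumour 1 lay within the range of its 8 other autosomal losses of at least 20 Mb, from -0.40 to -0.35 with a median of -0.37. The mean of -0.31 in tumour 7 lay within the range of its 9 such losses, from -0.33 to -0.27 with a median of -0.32. With arrays centred on the mode of their ratios in place of the median, the mean of all chromosome 13 probes of tumour 7 was -0.42 and that of tumour 1 was -0.34. Under that centre the middle stretch of tumour 7, at -0.21, also passed as a loss.

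**Figure D2:**
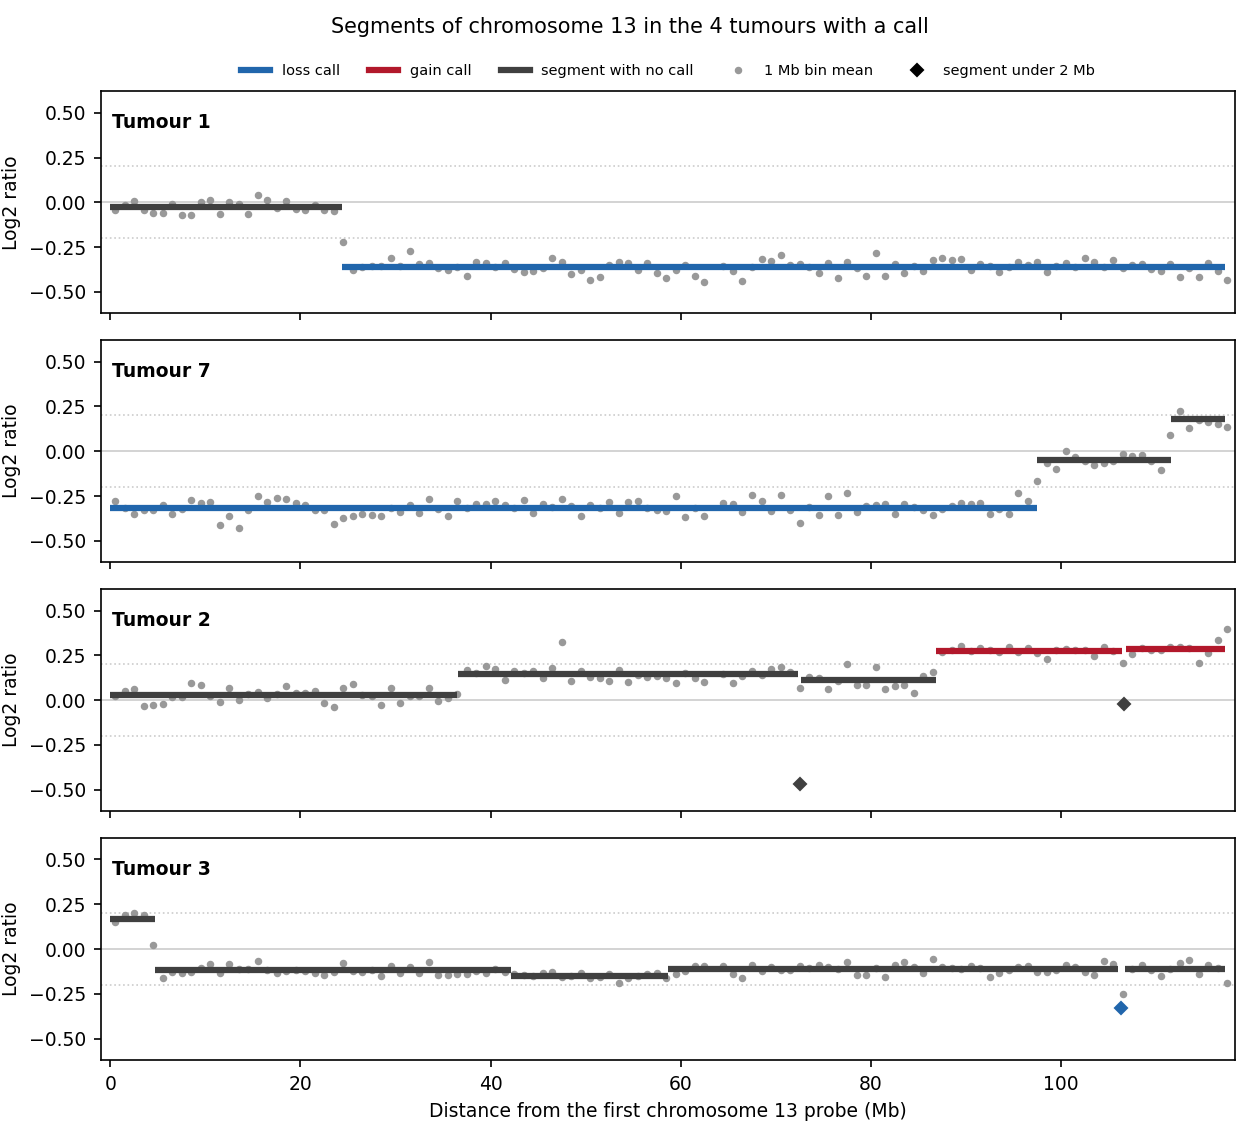
Log2 ratio of tumour over liver (y axis) along chromosome 13 (x axis, Mb from its first probe) in the 4 tumours with a call, with 1 Mb bin means as grey points, segments as lines, segments under 2 Mb also as diamonds and the threshold of 0.2 as dotted lines. Tumour 1 drops to -0.36 after 24.4 Mb and tumour 7 climbs out of -0.31 in 2 steps, while tumour 2 climbs to 0.28 and tumour 3 carries a single short loss at -0.33.

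In tumour 2 the chromosome stood higher toward its distal end, though not every step went up. Its first 36.5 Mb stood at 0.029, the next 35.8 Mb at 0.14 and, after a short segment of 6 probes at -0.47 between Pcsk1 and AK006620, a stretch of 14.2 Mb at 0.11. The called gain began inside Vcan, which encodes the matrix proteoglycan versican, and ran from base 89815783 to base 109445679 at 0.28 (SD 0.21, 1248 probes). It went on from base 109825303 to the last probe at 0.28 (SD 0.22, 609 probes). The combined gains averaged 0.28 and covered 27.0% of the measured probes, and 8 other autosomal gains of at least 20 Mb in this tumour ranged from 0.21 to 0.47. In the deposited log ratios 135 chromosome 13 spots of tumour 2 are set to 0, and the processed signals used here lay up to 0.86 (log2) from 0 at those spots. Both gains were called from the authors' value table too, with the same first and last positions.

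Tumour 3 was slightly low along nearly the whole chromosome and carried 1 short loss. Its first 4.67 Mb stood at 0.17 over 229 probes, and from base 7685833 onward the 3 long segments up to the short loss lay at -0.12, -0.15 and -0.11. None of these reached 0.2. The mean of chromosome 13 was the third lowest of the 19 autosomes in tumour 3, as it was in tumours 1, 5 and 7. The short loss ran from base 108974357 to base 109704763, over 0.73 Mb and 61 probes, at -0.33 (SD 0.18).

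Losses overlapped in at most 2 tumours, and no stretch was lost in 3. Of the chromosome 13 probes, 62.2% lay in the loss of 2 tumours, 37.8% in the loss of 1 tumour and none outside every loss. The stretch shared by tumours 1 and 7 ran from base 27406701 to base 100488993. A second shared stretch, of tumours 1 and 3, was the short loss from base 108974357 to base 109704763. Centred on the mode, tumour 7 also counted as lost there, which made 3 tumours. Pik3r1 and Map3k1 lay outside both shared stretches and inside the loss of tumour 1 only. Centred on the mode, the stretch of tumour 7 from base 100512307 to base 114559280 also counted as lost, and it holds both genes.

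The 0.73 Mb lost in tumour 3 holds the distal part of Ercc8, a transcription-coupled repair gene, then Elovl7, a fatty acid elongase, Depdc1b, the transcripts AK138149, AK043283, AB033517 and AK164820, and the first 25 of the 130 probes of Pde4d, a cyclic AMP phosphodiesterase. Tumour 2 changed inside the same gene. Its gain was interrupted from base 109452952 to base 109818804 by 30 measured probes at -0.023 (SD 0.32), all of them named Pde4d. The loss of tumour 3 and the gap of tumour 2 overlapped over 0.25 Mb, from base 109452952 to base 109704763, and the 24 probes there are all named Pde4d. With the penalty of the segmentation halved, the loss of tumour 3 ended at base 109573317, inside this stretch.

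Relative to the 5 Mb on either side, the 0.25 Mb stretch stood at -0.34 in tumour 2 and at -0.23 in tumour 3. In the other 9 tumours the same difference ranged from -0.0025 to 0.091 with a median of 0.026, so both low tumours lay outside the range of the rest. In absolute level the stretch stood at -0.055 in tumour 2 and -0.35 in tumour 3. The 95 probes of Pde4d outside the overlap and the gap stood at 0.29 in tumour 2 and -0.11 in tumour 3. Of the measured probes of the stretch, 17 of 21 were below 0 in tumour 2 and 20 of 21 in tumour 3. This count does not set the 2 tumours apart, since it was 17 of 21 in tumour 8 and 23 of 24 in tumour 1. Its share was lower in the remaining tumours, down to 6 of 22 in tumour 4. Tumours 2 and 3 share slide 1 with tumour 8, in which the stretch differed from its flanks by 0.0045. The stretch was picked from the calls of these 2 tumours, so the values are a description with no test.

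**Figure D3:**
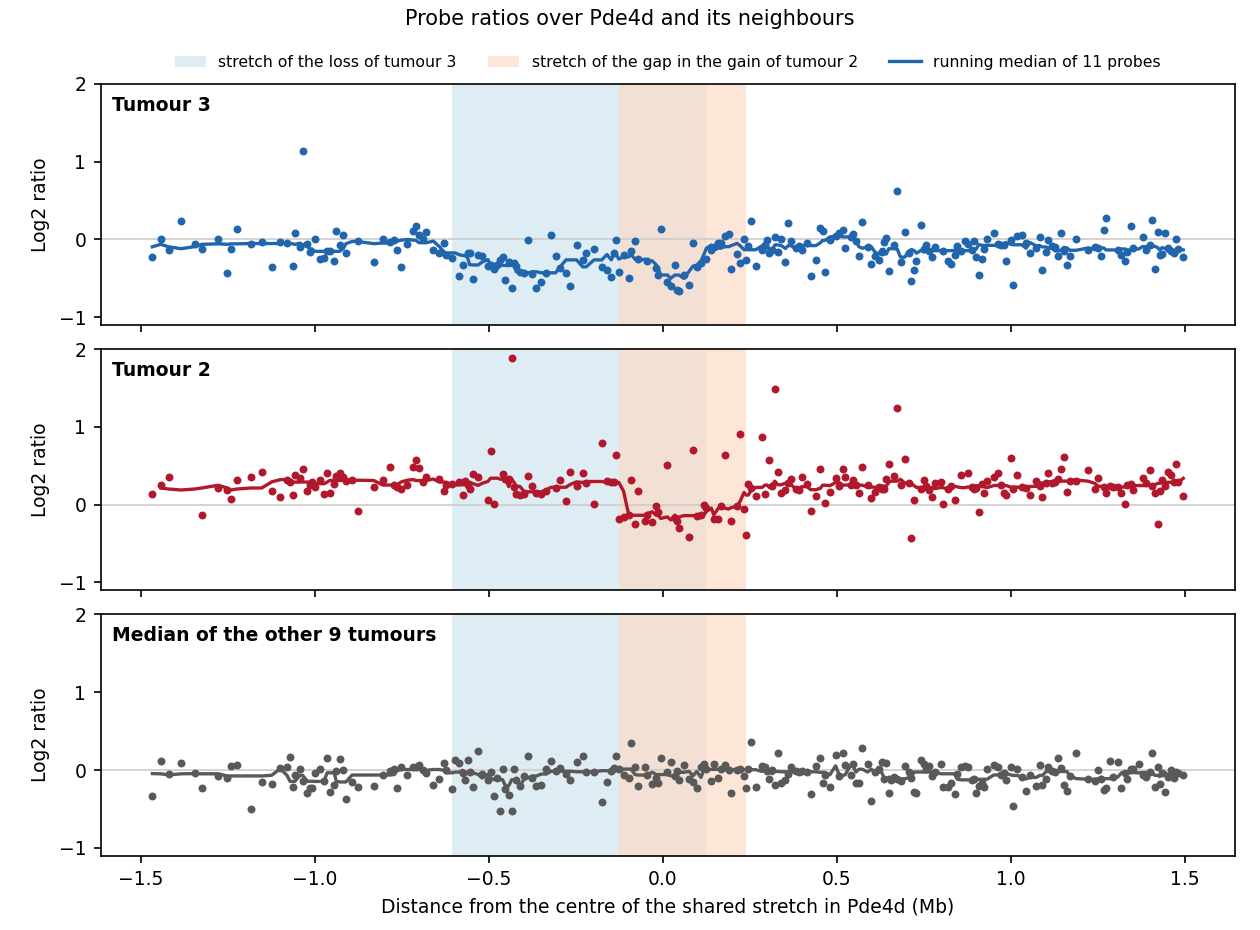
Log2 ratio of single probes (points) and their running median over 11 probes (line) around the stretch of Pde4d shared by the loss of tumour 3 and the gap of tumour 2 (x axis, Mb from its centre; y axis, log2 ratio of tumour over liver). Tumour 3 is low across the blue and overlapping shades and tumour 2 across the overlapping and orange shades, while the median of the other 9 tumours stays near 0.

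Among the tumours with no call, the chromosome was close to 0 or evenly low. Their means ranged from -0.13 in tumour 8 to 0.00078 in tumour 10, with a median of -0.039. The distal part minus the proximal part ranged from -0.011 to 0.038 in these 7 tumours, while it was -0.14 in tumour 1, 0.14 in tumour 2 and 0.12 in tumour 7. Tumour 8 moved to 0.00051 when its array was centred on the mode. Tumours 6 and 8, on different slides, shared a segment start at base 112513207, just beyond Mier3 and before Map3k1, with a distal segment of 7.77 Mb at -0.064 in tumour 6 and -0.18 in tumour 8. In tumour 6, 9 probes around Birc1f (now Naip6) formed a segment at 0.25 that was 1 probe short of a call.

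Over the 11 tumours, chromosome 13 averaged -0.077 (SD 0.12), with 9 tumours below 0. The values were -0.29, 0.14, -0.11, -0.017, -0.039, -0.024, -0.26, -0.13, -0.047, 0.00078 and -0.066 in tumours 1 to 11. Tumour 2 alone stood well above 0, and tumours 1 and 7 stood far below the rest. The mean did not pass the exact two-sided sign-flip permutation test over the 11 tumours (p = 0.0605, Benjamini-Hochberg adjusted over 20 chromosomes 0.242), in which 5% of the chromosomes passed as lower and 10% as higher. Without tumour 2 the mean was -0.098 and passed (adjusted exact permutation p = 0.0391), and without tumour 1 it was -0.056 and did not. With tumour 11 turned it was -0.065 (adjusted exact permutation p = 0.385).

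Set against the other 18 autosomes of the same tumour, which does not depend on the centre of the array, chromosome 13 differed by -0.081 on average (SD 0.11, n = 11), and it was the lower of the 2 in 9 of 11 tumours. The exact permutation p was 0.0381, and 0.181 after adjustment over 19 autosomes, where 10.5% passed in either direction. Without tumour 2 the difference was -0.097 and passed (adjusted exact permutation p = 0.0371). By slide the means of chromosome 13 were -0.035 on slide 1 (3 tumours), -0.098 on slide 2 (4 tumours) and -0.087 on slide 3 (4 tumours), so all 3 slides lay below 0. A limma fit on all chromosomes gave an adjusted p of 0.167, and 0.168 with the slide as a random block.

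The mean ratios of the distal and the proximal part did not differ by the test across the group. The distal part minus the proximal part, split at 61.6 Mb, averaged 0.013 (SD 0.072, n = 11, 6 of 11 above 0), with an adjusted exact permutation p of 0.834 over 19 autosomes, of which 0% passed. Tumour 1 was at -0.14, while tumour 2 was at 0.14 and tumour 7 at 0.12. A mean near 0 here joins tumours that moved in opposite directions, and tumour 2 enters through a gain. The test therefore cannot tell whether losses favour either end.

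**Figure D4:**
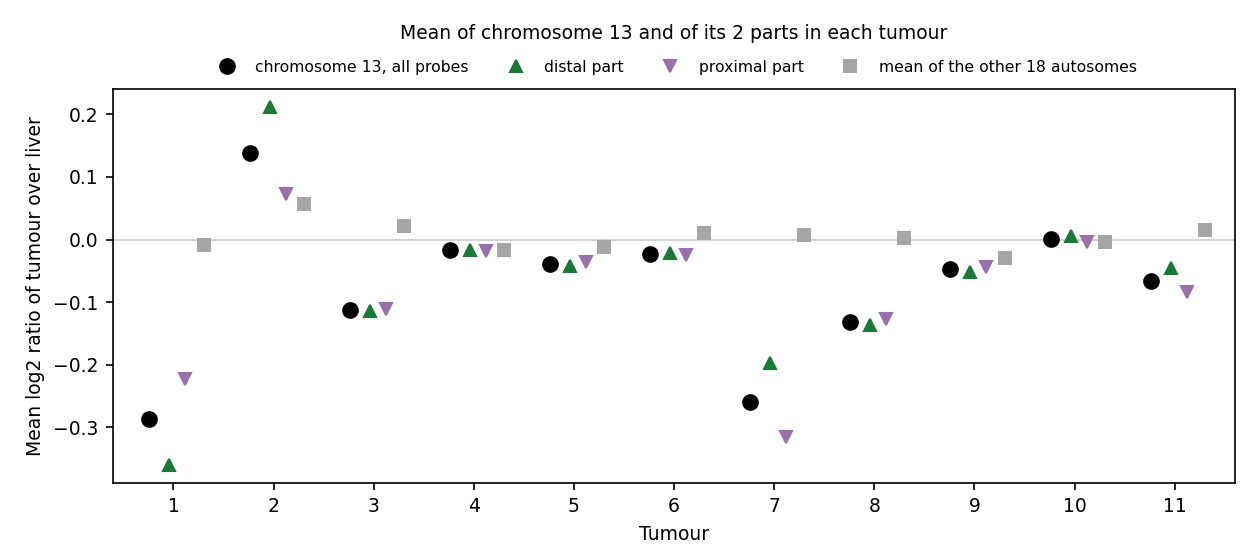
Mean log2 ratio of tumour over liver for all chromosome 13 probes (circles), its distal part (triangles up), its proximal part (triangles down) and the mean of the other 18 autosomes (squares) in each tumour (x axis). Tumours 1 and 7 lie near -0.29 and -0.26 with their 2 parts apart in opposite order, tumour 2 lies above 0, and the remaining tumours have parts that nearly coincide.

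In 1 Mb bins, 16.0% of the 1287 bin values of all arrays were at or below -0.2, beside 7.26% of all autosomal bin values, and 2.72% were at or above 0.2, beside 8.18%. Every bin was at or below -0.2 in at least 1 tumour, 69 of 117 bins in 2 tumours and 10 bins in 3. In those 10 bins the low tumour beside tumours 1 and 7 was tumour 11 in most cases, and otherwise tumour 8 or 9. With tumour 11 turned, 3 bins were that low in 3 tumours and 74 in 2. In the limma fit on all 2539 bins, 5 of the 117 chromosome 13 bins were called lower, where 3.31% of all bins were, and 0 were called higher, where 9.89% of all bins were. At an unadjusted p below 0.05, 49 bins were lower, where 12.1% of all bins were, and 0 were higher, where 12.5% were. The 5 bins start at 29, 30, 31, 37 and 38 Mb, inside the shared loss of tumours 1 and 7, and average -0.13 to -0.12 with 10 of 11 tumours below 0 in each.

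Those 5 bins rested on few arrays and on the centre. None was called with arrays centred on the mode, 2 without both tumours 9 and 11, and 17 with the slide as a random block. That block used a negative estimated correlation within slides (-0.072), which tends to lower the standard error of a mean. Of single tumours, leaving out tumour 7 left no call, and 1 bin was called without tumour 1 or tumour 8, 3 without tumour 3 and 22 without tumour 2.

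At the level of genes, 19 of the 389 chromosome 13 genes with at least 3 probes were called lower in the limma fit on all 9378 genes, where 2.11% of all genes were. The call asked for an adjusted p under 0.05 and for a mean that lay 0.1 or more from 0. None was called higher, where 4.4% of all genes were. At an unadjusted limma p below 0.05, 125 (32.1%) were lower, where 11.7% of all genes were. Only 1 (0.26%) was higher, where 10.9% of all genes were. The 19 means lay between -0.27 and -0.14 with adjusted p from 0.0180 to 0.0474. Of the 19 genes, 14 lay inside the losses of both tumour 1 and tumour 7 and 5 inside the loss of 1 tumour. Position alone gives a similar share, since 251 of the 389 tested genes lay inside the losses of 2 tumours. Of the 19, 8 were below 0 in all 11 tumours, as was no other tested gene of the chromosome. The call was made on the same values and favours genes of 1 sign, so this is no separate support. The median gene mean was -0.082 over the 389 genes and -0.011 over all 9378, so a low gene mean is the common state on this chromosome.

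The called genes include, named here after their values were seen, Cdc2l5 (now Cdk13), a transcriptional kinase, at -0.14, Agtr1a, an angiotensin II receptor, at -0.14, Rreb1, a RAS-responsive zinc finger factor, at -0.16, Cdc14b, a cell cycle phosphatase, at -0.20, and Sfxn1, a mitochondrial serine transporter, at -0.20.

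The number of called genes swung with the processing and with single arrays. It was 1 with arrays centred on the mode, 39 with normexp background correction and 82 with the slide as a random block. The slide block used a negative estimated correlation within slides (-0.11), which tends to lower the standard error of a mean. Without single tumours it was 1 without tumour 1, 6 or 8, between 2 and 14 without tumour 2, 3, 4, 5, 7, 9 or 10, and 64 without tumour 11. With tumour 11 turned it was 60, and without tumours 9 and 11 it was 47. The arrays of tumours 4, 5 and 9 correlated at 0.72 to 0.79 over all probes, and the part of this shared pattern in the gene calls was not tested.

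Dsp, which encodes the desmosomal linker desmoplakin of epithelial cells, was the called gene with the lowest mean. Its 6 probes at 38245523 to 38285695 ranged from -0.51 to -0.030 over the tumours with a median of -0.26. All 11 tumours were below 0, tumour 2 the least, and tumours 1 and 9 the most. The mean was -0.27 (SD 0.18, n = 11, limma adjusted p = 0.0180), and Dsp was called in all 8 other settings and all 11 fits without 1 tumour, with adjusted p from 0.00208 to 0.0491. Its neighbour Snrnp48, 3 probes within the same Mb and named here after its value was seen, averaged -0.054.

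Bmp6, a bone morphogenetic protein ligand, lies next to Dsp and was the other called gene of the development and mammary list. Its 16 probes ranged from -0.42 to -0.027 with a median of -0.094, and its mean was -0.17 (SD 0.15, n = 11, limma adjusted p = 0.0396). All 11 tumours were below 0, and tumours 1 and 7 stood apart at -0.42 and -0.41. The call held in 3 of 8 other settings and in 3 of the 11 fits without 1 tumour, and it was lost with tumour 11 turned (limma adjusted p = 0.152).

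Of the 18 genes on the development and mammary list, 13 had a probe and 7 were tested, with 2 called lower and none higher. The median over the 13 was -0.11, beside -0.082 over all tested chromosome 13 genes. Gli3, a transcription factor of the hedgehog pathway in the proximal part, averaged -0.079 and stood at -0.36 in tumour 7 and 0.048 in tumour 1. Itga2 and Itga1, collagen-binding integrin subunits near the distal end, stood at 0.19 and 0.13 in tumour 7, at 0.33 and 0.41 in tumour 2 and at -0.44 and -0.39 in tumour 1. The high and the low tumours differed between these genes in the same way as between the segments they lie in.

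Pik3r1 was below 0 in 10 of 11 tumours, tumour 2 being the exception. Its 8 probes at 102459422 to 102536771 ranged from -0.39 in tumour 1 to 0.27 in tumour 2 with a median of -0.20. The mean of -0.17 (SD 0.18, n = 11) narrowly missed the limma threshold (adjusted p = 0.0559). It passed without tumour 2 (mean -0.22, adjusted p = 0.0426) or without tumour 11 (adjusted p = 0.0250), with tumour 11 turned (adjusted p = 0.0390), and under several other settings, within a range of adjusted p from 0.0118 to 0.125. It lies just beyond the end of the loss in tumour 7, where it stood at -0.24 although its segment averaged -0.050.

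Map3k1, with 6 probes at 112547458 to 112596883, ranged from -0.33 in tumour 1 to 0.32 in tumour 2 with a median of -0.031. Its mean was -0.069 (SD 0.20, n = 11, limma adjusted p = 0.498), and 6 tumours were below 0 and 5 above. Tumour 8 was close to tumour 1 at -0.32. None of the 12 tested genes of the growth signalling list, Pik3r1 and Map3k1 included, was called in either direction by limma. Of the 12, 2 had an unadjusted p below 0.05, beside 126 of the 389 tested chromosome 13 genes. The median of the 13 listed genes was -0.069, beside -0.082 over all tested chromosome 13 genes.

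Growth signalling genes near the distal end differed widely between tumours. Fgf10, a ligand for epithelial branching near the distal end, stood at 0.64 in tumour 2, 0.12 in tumour 7 and -0.38 in tumour 1. Erbb2ip (now Erbin), a scaffold that binds ERBB2, stood at 0.45 in tumour 2 and -0.35 in tumour 1. Il6st, the shared receptor subunit of the interleukin-6 family, averaged -0.15 (limma adjusted p = 0.131) and was below 0 in 10 of 11 tumours. Rasa1, a RAS GTPase-activating protein, averaged -0.073 (adjusted p = 0.371), and Net1, an exchange factor for RhoA in the proximal end kept by tumour 1, averaged 0.022 (adjusted p = 0.813).

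The list of cell cycle, DNA repair and tumour suppressor genes gave no limma call either, with 12 of its 20 genes tested and 17 carrying a probe. Of the 12, 4 had an unadjusted p below 0.05, beside 126 of the 389 tested chromosome 13 genes. The median of the list was -0.068. Of the 17 genes with a probe, 11 lay inside the losses of 2 tumours, beside 251 of the 389 tested chromosome 13 genes. Fancc, of the Fanconi anaemia core complex, averaged -0.15 (limma adjusted p = 0.0797) and stood at -0.48 in tumour 7 and -0.31 in tumour 1. Ptch1, the hedgehog receptor and a tumour suppressor, averaged -0.16 (adjusted p = 0.131). Both sit side by side in the stretch lost in tumours 1 and 7. Ccnh, the cyclin of the CDK-activating kinase, averaged 0.055 (adjusted p = 0.551), although its tumour values of -0.15 in tumour 1 and -0.14 in tumour 7 were again the lowest. Its partner Cdk7 averaged -0.0040 (adjusted p = 0.967).

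**Figure D5:**
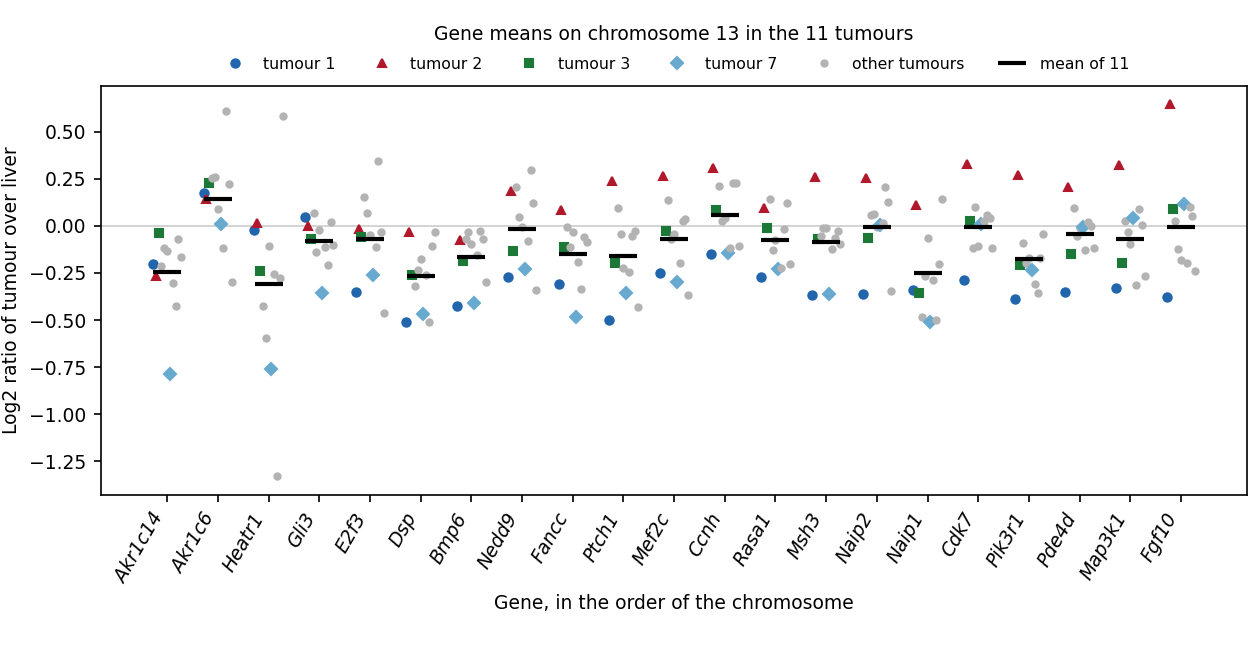
Mean log2 ratio of tumour over liver (y axis) for 21 genes in chromosome order (x axis), with tumours 1, 2, 3 and 7 as coloured symbols, the other tumours as grey points and the mean of all 11 as a bar. Tumours 1 and 7 lie together at the bottom through the middle of the chromosome and part at both ends, and tumour 2 lies above the others from Ptch1 onward for most genes.

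Gene clusters gave values that differed between close copies, and probes for near-identical copies may share signal, so these are uncertain. Among the aldo-keto reductases, which include steroid-metabolising enzymes, Akr1c14 was called lower, with a mean of -0.25 (SD 0.21, n = 11, 3 probes, limma adjusted p = 0.0265) and all 11 tumours below 0. Akr1c6, within the same Mb, had the highest mean of all tested chromosome 13 genes at 0.14 (adjusted p = 0.186), with 9 tumours above 0. Of the Akr1c cluster 2 of 7 genes were tested. The call of Akr1c14 held in 7 of 8 other settings and in 7 of the 11 fits without 1 tumour.

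Among the Naip genes, sensors of bacterial flagellin and secretion needles in the inflammasome, Naip1 averaged -0.25 (SD 0.23, n = 11, 5 probes, limma adjusted p = 0.0318), with 9 tumours below 0. Naip2 averaged -0.0048 (adjusted p = 0.968), and Birc1f, with 2 probes and untested, averaged 0.28 and reached 1.02 in tumour 9. The whole cluster of 22 probes differed from its flanks by -0.073 to 0.16 over the 11 tumours, and no tumour had a call limited to it. The limma call of Naip1 held in 4 of the 11 fits without 1 tumour, with adjusted p up to 0.0774.

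In the histone, prolactin and serpin clusters only 2 genes had 3 probes, and neither was called. The medians over the members were -0.031 for 3 Hist1h genes, -0.070 for 14 Prl genes and -0.053 for 11 Serpinb genes. The loss of tumour 1 begins in the Prl cluster, and 10 of the 14 Prl genes lay inside the losses of both tumour 1 and tumour 7. Of all chromosome 13 probes, 62.2% lay in the loss of 2 tumours.

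The 7 very long genes with probes, among them Pde4d, Ryr2, Cdkal1, Gmds and Atxn1, gave no limma call. Of the 7, 3 had an unadjusted p below 0.05, beside 126 of the 389 tested chromosome 13 genes. The means of the 7 ran from -0.12 for Atxn1 to -0.045 for Pde4d, with a median of -0.093. Over its 130 probes Pde4d averaged -0.045 (SD 0.14, n = 11, limma adjusted p = 0.605), so the low stretch in tumours 2 and 3 does not appear in the mean of the gene.

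Some of the lowest and highest means among the tested genes of the chromosome came from 3-probe genes with a wide spread. Heatr1, a factor of ribosomal RNA transcription, averaged -0.31 (SD 0.49, n = 11) and ranged from -1.33 in tumour 9 to 0.59 in tumour 11. It was not called (limma adjusted p = 0.131). ENSMUST00000099331 averaged 0.11 (SD 0.30, adjusted p = 0.451) and Bhmt, betaine-homocysteine methyltransferase, averaged 0.078 (SD 0.29, adjusted p = 0.582), both with the highest value in tumour 9 and the lowest in tumour 11. In the labelled direction tumours 9 and 11, the noisiest arrays, were thus on opposite sides for these genes. With tumour 11 turned its values would be -0.59 for Heatr1, 0.56 for ENSMUST00000099331 and 0.36 for Bhmt, on the same side as tumour 9.

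The T cell receptor gamma locus, where T cells delete DNA during rearrangement, was read from 13 probes at 19241383 to 19457851, between Amph and Stard3nl. It stood 0.041 above its 5 Mb flanks (SD 0.066, n = 11), with 9 of 11 tumours above 0, a lowest value of -0.052 and a highest of 0.20 in tumour 11. This missed the threshold of the exact sign-flip permutation test, two-sided (p = 0.0537). The same exact test passed with normexp background correction (difference 0.069, p = 0.00879), in the authors' deposited table (0.052, p = 0.00293) and with a GC fit removed (0.044, p = 0.0332), and it gave 0.032 (exact permutation p = 0.258) with dim spots left out. With tumour 11 turned the difference was 0.0053 (exact permutation p = 0.855).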

How the data were processed

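Genomic DNA of 11 mammary tumours and of liver was compared on 2-colour Agilent arrays, Cy5 and Cy3 per the labels. The deposited scanner files give processed intensity per channel, background-subtracted and dye-normalized by the authors' software, Feature Extraction 10.5.1.1 for 7 arrays and 11.0.1.1 for tumours 4, 7, 9 and 11, per the file headers. Their log10 ratio column is deposited beside these. The authors' value table holds log2 ratios, for which the submitters' processing notes name Partek without a version. Probe positions are mm9 per the file headers.

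Outlier spots were left out, log2 ratios of the processed red to the processed green channel were averaged per probe, and the array median was subtracted. Segments came from exact optimal partitioning (penalty factor 2, at least 5 probes). Tests were exact sign-flip permutations over tumours, and limma 3.58.1 (R 4.3.3) on all 1 Mb bins with at least 5 probes and all genes with at least 3 probes, after tests on simulated data. Genes carry the names of the array annotation, and of 847 names 72 were matched through synonyms and 306 had no match in a RefSeq gene table of a later build.

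The members, lists and thresholds were chosen with earlier results of these data known. The naming rule covered Pik3r1, Map3k1, up to 30 list genes, the 3 lowest and 3 highest means, and genes at segment ends or in shared losses. Normexp used spot medians in place of means, without loess. Alternatives are given at the end. The samples are 1 array per animal, so the number of arrays limits the precision.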

Additional observations from a re-analysis of the deposited data

How the results depend on the processing

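No paired analysis was possible because the study has 1 group, and each tumour already shares its array with liver DNA. The 3 chromosome-wide differences kept their direction and their side of the threshold under all other backgrounds, centres and sources tried, with the mean of chromosome 13 between -0.087 and -0.065. Leaving out 1 tumour at a time gave -0.098 to -0.056 for the mean of chromosome 13, -0.097 to -0.061 against the other autosomes and 0.00012 to 0.028 for distal minus proximal, and the first 2 passed only without tumour 2. The T cell receptor gamma difference, 0.041, passed with normexp background correction (0.069, exact permutation p = 0.00879), in the authors' table (0.052, p = 0.00293 by the same exact test) and after removal of a GC fit (0.044, exact permutation p = 0.0332), was 0.032 with dim spots left out (exact permutation p = 0.258), and ran from 0.025 to 0.050 without single tumours, passing without tumour 2 or 9. It was 0.0053 with tumour 11 turned.

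Lower bins numbered 5, against 0 centred on the mode, 2 without tumours 9 and 11, 17 with the slide as a random block, and 0 to 22 without single tumours. Lower genes numbered 19, against 39 with normexp, 1 centred on the mode, 60 with tumour 11 turned, 47 without tumours 9 and 11, 82 with the slide block, and 1 to 64 without single tumours. Higher genes numbered 0, against 2 with tumour 11 turned, 1 without tumours 9 and 11, 2 with no minimum of probes, and 0 to 1 without single tumours. The estimated correlation within slides was -0.072 for bins and -0.11 for genes. A negative estimate tends to lower the standard error of a mean, so the counts with the slide block are not stricter ones.

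The 3 losses and 2 gains were called with normexp, the authors' table and dim spots left out, which added at most 1 loss. With the penalty halved there were 36 losses, 9 gains and up to 4 tumours lost at 1 place. Of those losses 23 were pieces of the long losses of tumours 1 and 7, and 12 lay in tumours with no loss under the main settings. Among these tumours, tumour 4 also had a loss in the authors' table. A threshold of 0.15 gave 4 gains and also called a loss in tumour 8 from base 112513207 to the last probe. A threshold of 0.3 gave 0 gains. Without single tumours there were 2 to 3 losses, 0 to 2 gains, 0 to 1 whole losses and 1 to 2 tumours lost at 1 place. The cause of these shifts was not tested, except where tumours or thresholds were removed. Depth does not apply to arrays, and dim spots, 0% to 13.6% of chromosome 13 spots, limit tumours 2 and 9 most.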
